A study of Homo sapiens with 12 samples.

Results

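The 10 genes described here are RBM25, an RNA-binding splicing factor, and 9 genes whose products belong to the U1 small nuclear ribonucleoprotein (U1 snRNP) or are known to work with it or with RBM25: LUC7L, LUC7L2, LUC7L3, SNRNP70, SNRPA, SNRPC, TIA1, TIAL1 and SRRM1. They were chosen by name, as 10 of the 62710 genes in the deposited count table, and all 10 were among the 20593 genes tested. In the deposited splicing table they have 507 of 721551 events, of which 197 had enough reads to be tested. The cells were HEK293T, a transformed human embryonic kidney line, harvested 48 hours after transfection with 200 ng of a vector for an effector and 200 ng of one for its guide. Each effector carries dCasRx, a CasRx protein that still binds RNA by its guide but no longer cuts it. The 6 groups of 2 biological replicates were dCasRx-RBM25 with a nontargeting guide (RBM25_NT), a guide to MAPT exon 10 (RBM25_MAPT) or a guide to CD46 exon 13 (RBM25_CD46); RBFOX1N-dCasRx-C, which carries parts of the splicing factor RBFOX1, with a nontargeting guide (RBFOX1N_NT) or the MAPT guide (RBFOX1N_MAPT); and dCasRx alone with a nontargeting guide (dCasRx_NT). All groups were transfected and all carried dCasRx, and no untransfected cells were analysed here. The effectors were transiently overexpressed, so a library mixes cells that took up different amounts of vector.

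The U1 snRNP binds the 5′ splice site at the start of spliceosome assembly. SNRNP70, SNRPA and SNRPC are its specific proteins, which sit beside the Sm ring. LUC7L, LUC7L2 and LUC7L3 are the human relatives of yeast Luc7, a U1 component that influences which 5′ splice sites are chosen. TIA1 and TIAL1 bind U-rich sequence downstream of weak 5′ splice sites and help U1 bind there through SNRPC, while RBM25 binds exonic enhancers and associates with the U1 snRNP and LUC7L3. SRRM1 (SRm160) is a splicing coactivator that bridges factors bound to exonic enhancers. Many genes for splicing factors contain a poison exon, whose inclusion brings in an early stop codon and exposes the mRNA to nonsense-mediated decay (NMD).

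Libraries held 32487927 to 53985468 counts in all. In no group did the 2 replicates match within sampling noise (chi-square per gene 6.49 to 36.3). Of the markers of the HEK293T line, KRT8, KRT18, VIM, NEFM, PAX2 and LHX1 were all detected, while the blood marker PTPRC had 0 to 2 counts and the endothelial marker CDH5 had 0 to 3 counts in a library. Not all markers of other cells were absent. The fibroblast marker COL1A1 had 695 to 1438 counts a library, above PAX2 (181 to 484) and LHX1 (221 to 481). KRT8, a keratin, averaged 66.6 ± 0.859 CPM (reads per 1000000 counts) in the RBFOX1N libraries (SD, n = 4) and 29.5 ± 1.28 CPM in the dCasRx_NT libraries (SD, n = 2), so it moved with the RBFOX1N effector. In RBM25 minus RBFOX1N, the comparison with the most calls, 4 of these 6 markers passed the edgeR test, with log2 fold changes of -1.25 for KRT8, 0.71 for PAX2, 0.33 for NEFM and 0.27 for LHX1, and KRT18 (0.08) and VIM (-0.02) did not. Of 6 markers of other cell types, 4 were tested there and 2 passed: the fibroblast gene COL3A1 (0.88, on 28 to 92 counts a library) and the liver gene ALB (-1.68, on 3 to 21 counts). COL1A1 (0.24) and PECAM1 (-0.76, on 9 to 29 counts) did not pass. The part of these markers in the results was not tested. The replicates of RBM25_MAPT (36.3) and dCasRx_NT (21.7) were the least alike, and for members and listed genes called against dCasRx_NT, other than RBM25 itself, the adjusted p with single libraries left out is given.

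Exons of 5 members on which the splicing results turn are shown here, because 5 of the 6 hold a stop codon by which their inclusion can end the reading frame, and the other keeps the frame. The sequences are from GENCODE release 29 transcripts (GRCh38), on the sense strand from 5′ to 3′. The 5 exons with a stop codon are printed from their first base to that codon, which is in capitals. The 33-nt exon of TIA1 is printed whole and has no capitals.
RBM25 62-nt exon, chr14:73100301-73100318, plus strand: agatcatatggtgacTAA
SNRNP70 60-nt exon, chr19:49102114-49102139, plus strand: ccaccacgcagctggcttgcagcTGA
TIAL1 62-nt exon, chr10:119593459-119593513, minus strand: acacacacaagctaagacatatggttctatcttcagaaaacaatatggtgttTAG
LUC7L3 193-nt exon, chr17:50737287-50737360, plus strand: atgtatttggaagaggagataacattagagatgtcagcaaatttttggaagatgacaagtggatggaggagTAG
TIA1 66-nt exon, chr2:70225357-70225393, minus strand: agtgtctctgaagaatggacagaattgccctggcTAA
TIA1 33-nt exon, chr2:70229059-70229091, minus strand: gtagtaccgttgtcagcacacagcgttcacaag
In the annotation, the stop codon of the SNRNP70, TIAL1, LUC7L3 and TIA1 66-nt exons belongs to transcripts marked for NMD, and that of the RBM25 exon to transcripts marked protein-coding. The 33-nt exon lies in 6 annotated TIA1 transcripts, 4 of them protein-coding, and its length is a multiple of 3.

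RBM25 was the first gene to check, because the dCasRx-RBM25 effector carries RBM25 sequence and its reads are counted at the gene. RBM25 reached 45856 and 42323 CPM in RBM25_NT, 47237 and 59147 CPM in RBM25_MAPT and 53832 and 46280 CPM in RBM25_CD46. It had 197 and 218 CPM in RBFOX1N_NT, 212 and 219 CPM in RBFOX1N_MAPT, and 204 and 352 CPM in dCasRx_NT. All 6 libraries labelled dCasRx-RBM25 therefore stood far above the 6 others, with 4.08% to 5.69% of all counts against 0.02% to 0.0381%, and the labels hold for this effector. The fitted log2 fold change was 7.31 ± 0.24 (SE) for RBM25_NT minus dCasRx_NT and 7.84 ± 0.18 (SE) for RBM25 minus RBFOX1N over the nontargeting and MAPT guides.

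The reads across splice junctions separated the effector's RBM25 from the cell's own gene. The annotated start codon of RBM25 (chr14, base 73071642, GRCh38) lies in the second exon, so that the junction between exons 1 and 2 is upstream of the coding sequence. At the 17 junctions after it, the mean read number per 1000000 counts outside RBM25 was 254 to 353 times higher in the dCasRx-RBM25 libraries than in the others. At junction 1 the ratio of the means was 0.945. Reads at junction 1 were therefore not raised with the effector's, and this measure was chosen after the data were seen.

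Junction 1 had 9.74 and 9.17 reads per 1000000 counts in RBM25_NT, 10.3 and 11.2 in RBM25_MAPT, and 8.4 and 9.14 in RBM25_CD46. It had 9.08 and 11.3 reads per 1000000 counts in RBFOX1N_NT, 9.83 and 9.9 in RBFOX1N_MAPT, and 8.1 and 13.1 in dCasRx_NT. The groups overlapped, and the highest and the lowest library were both dCasRx_NT. The mean was 9.66 ± 0.987 in the 6 dCasRx-RBM25 libraries and 10.2 ± 1.75 in the 6 others (SD), with p = 0.528 in an exact two-sided permutation test. No difference in RBM25 transcripts spliced at junction 1 was detectable at this depth, which gave 263 to 475 reads a library, while the coding junctions were 254 to 353 times higher.

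The dCasRx_NT libraries differed from the RBFOX1N libraries in the ratio of coding junctions to junction 1. The median coding junction had 0.748 and 0.73 reads for each read of junction 1 in RBFOX1N_NT and 0.772 and 0.767 in RBFOX1N_MAPT. In dCasRx_NT it had 1.01 and 1.12. These groups did not overlap in this median, and the difference was not tested. The dCasRx_NT libraries carry no RBM25 effector by their labels. The first coding junction alone had 155 reads to 263 of junction 1 in dCasRx_NT replicate 1. It had 180 to 306 in RBFOX1N_NT replicate 1 and 206 to 356 in RBFOX1N_MAPT replicate 2, a similar proportion. In dCasRx_NT replicate 2 it had 463 to 451. The second dCasRx_NT library, at 352 CPM, was also the highest of the 6 libraries without the effector in total RBM25.

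Intron reads of RBM25 were the other measure of the endogenous gene, since an inserted coding sequence usually carries no introns. Reads across exon-intron boundaries, summed over the 18 introns, came to 5.21 and 4.42 per 1000000 counts outside RBM25 in RBM25_NT, 3.72 and 5.86 in RBM25_MAPT, and 5 and 4.74 in RBM25_CD46. They came to 3.09 and 4.49 in RBFOX1N_NT, 4.29 and 3.87 in RBFOX1N_MAPT, and 4.06 and 2.73 in dCasRx_NT. The mean was 4.82 ± 0.728 in the dCasRx-RBM25 libraries and 3.75 ± 0.699 in the others (SD, n = 6 each), a ratio of 1.29 with p = 0.0303 in an exact two-sided permutation test, whose smallest possible p was 0.00216. The ranges of the groups overlapped. The others join RBFOX1N, with a mean of 3.93, and dCasRx_NT, with a mean of 3.39, so the test compares dCasRx-RBM25 with neither alone. In all, 6 measures of RBM25 RNA were tested in this way, and the Benjamini-Hochberg adjusted permutation p over the 6 was 0.0606 for the intron reads, 0.528 for junction 1 and 0.0325 for the reads of intron 9 alone, whose ratio was 1.38 (unadjusted p = 0.0108). It was 0.013 for the ratio of coding junctions to junction 1, which the effector sets. Reads of intron 9 per 1000000 counts ran from 2.57 to 4.03 in dCasRx-RBM25, overlapping RBFOX1N at 2.02 to 3.11. In dCasRx_NT they were 1.65 and 2.49. Intron 9 alone was not tested with other scalings or with single libraries left out.

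The intron reads were not a clean measure of the endogenous gene. Intron 13 (chr14:73107900-73109341) had 10 to 12 exon-intron reads in each dCasRx-RBM25 library and 0 in each of the others. Without this intron the ratio was 1.21 with p = 0.0758, and without intron 9, the one with the most reads, it was 1.11 with p = 0.299 (exact two-sided permutation tests). Skipping reads showed the same limit. Reads that skip the 287-nt exon at chr14:73103192-73103478 numbered 33 to 65 in the dCasRx-RBM25 libraries and 1 to 13 in the others. Reads that skip the 223-nt exon at chr14:73105859-73106081 numbered 5 to 18 in the dCasRx-RBM25 libraries and 0 in the others. Whether such reads come from the cell's gene or from the effector's transcript cannot be told apart here.

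The 62-nt exon of RBM25, printed above, lies in intron 9 (chr14:73099751-73103191) and is the gene's own candidate poison exon. Its percent spliced in (PSI) has no use in the dCasRx-RBM25 libraries, where it was at most 0.02% on 134439 to 181644 reads, because the effector adds only skipping reads. Per 100 reads of junction 1, the exon had 7.34 and 9.47 junction reads in RBM25_NT, 8.08 and 11.5 in RBM25_MAPT, and 10.3 and 10 in RBM25_CD46. It had 14.5 and 8.8 in RBFOX1N_NT, 13.2 and 13.1 in RBFOX1N_MAPT, and 10.8 and 4.88 in dCasRx_NT. The means were 9.46 ± 1.53 in the dCasRx-RBM25 libraries and 10.9 ± 3.58 in the others (SD, n = 6 each; p = 0.394, adjusted 0.473 over the 6 measures, exact two-sided permutation test). Per 1000000 counts outside RBM25, the last of the 6 measures, the exon's reads gave a ratio of 0.854 (p = 0.29, adjusted 0.435, exact permutation test). The others join 2 unlike groups, on either side of the dCasRx-RBM25 mean. Their means were 12.4 in RBFOX1N and 7.86 in dCasRx_NT per 100 reads of junction 1. Per 1000000 counts they were 1.23 and 0.758, beside 0.915 in dCasRx-RBM25. These 2 tests therefore do not compare dCasRx-RBM25 with either group alone. In the libraries without the RBM25 effector, PSI was 11.1% and 9.42% in RBFOX1N_NT, 10.2% and 8.61% in RBFOX1N_MAPT, and 6.04% and 2.52% in dCasRx_NT. Skipping reads, which lower PSI, numbered 340 and 635 in dCasRx_NT, beside 263 and 451 of junction 1. In RBFOX1N_NT they numbered 270 and 305, beside 306 and 466. The part of these reads in the difference of PSI was not tested. The difference of RBFOX1N_NT minus dCasRx_NT was 5.98 points with an adjusted p of 0.0422 in the quasi-binomial model, under the 10 points set for a call. Leaving out 1 library in turn moved this adjusted p between 0.0185 and 0.44.

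For the other members, levels are set side by side per kilobase of annotated exon. In the 6 libraries without the RBM25 effector, SNRPC averaged 136 CPM per kb (range 122 to 143) and SNRNP70 131 CPM per kb (124 to 145), and these 2 did not differ beyond their ranges. SNRPA followed at 86.6 CPM per kb, below both. LUC7L3 averaged 40 CPM per kb (36.2 to 44.6) and SRRM1 35.8 (33 to 37.9), which overlapped, followed by TIAL1 at 20.5 (18.5 to 21.5) and RBM25 at 19.7 (16.6 to 29.7), which also overlapped. LUC7L2 at 11.9 (8.9 to 14.2) and LUC7L at 11.7 (10.9 to 13.3) overlapped as well, and TIA1 was lowest at 5.91 (5.04 to 8.07). The RNAs for the specific U1 proteins were thus the most abundant per length, and LUC7L3 exceeded LUC7L and LUC7L2 in each of these libraries. The length joins the exons of all annotated transcripts of a gene, and the ranking depends on it.

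**Figure D1:**
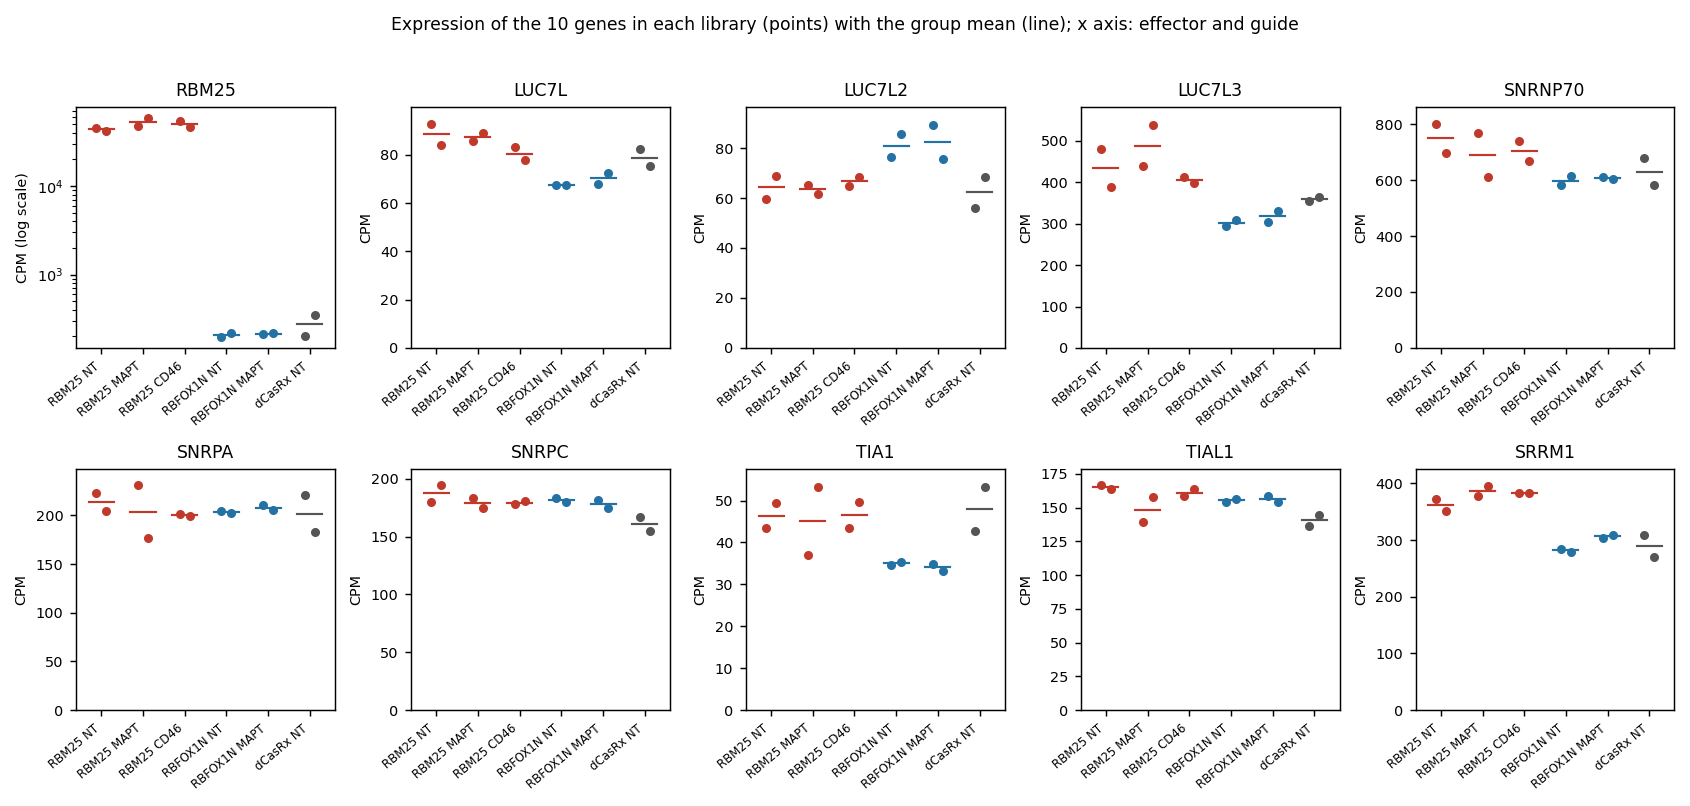
CPM of the 10 genes in each library (points) with the group mean (line), by effector and guide; the RBM25 axis is logarithmic and the others start at 0. LUC7L, LUC7L3 and SRRM1 lie higher in the RBM25_NT and RBM25_MAPT libraries than in the RBFOX1N libraries, LUC7L2 lies lower, and SNRPA, SNRPC and TIAL1 overlap.

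Between the RBM25 and RBFOX1N effectors, over the nontargeting and MAPT guides (4 libraries against 4), 7 of the 10 genes passed the edgeR test at an adjusted p under 0.05, against 36.7% of all 20593 genes (39.6% with the guides pooled, where 7 members were also called). One of the 7 is RBM25, through its effector. Of the 9 others, LUC7L, LUC7L3, SNRNP70, TIA1 and SRRM1 rose, LUC7L2 fell, and SNRPA, SNRPC and TIAL1 did not pass. The median log2 fold change of the 9 was 0.26, beside 0.01 over all genes tested. In bulk libraries, more RNA in each cell and more cells with the RNA cannot be told apart.

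The LUC7 family moved in both directions. LUC7L3 had 480 and 388 CPM in RBM25_NT and 439 and 537 CPM in RBM25_MAPT, against 295 and 309 CPM in RBFOX1N_NT and 305 and 331 CPM in RBFOX1N_MAPT. The lowest RBM25 library lay above the highest RBFOX1N library. The log2 fold change was 0.57 ± 0.08 (SE), 1.49-fold, with an edgeR adjusted p of 0.000123. LUC7L had 92.9 and 84.2 CPM in RBM25_NT and 85.8 and 89.1 CPM in RBM25_MAPT, against 67.4 and 67.3 CPM in RBFOX1N_NT and 67.7 and 72.6 CPM in RBFOX1N_MAPT. These groups did not overlap either, and LUC7L rose by 0.36 ± 0.06 (SE) on the log2 scale with an edgeR adjusted p of 0.000578. LUC7L2 had 59.7 and 68.8 CPM in RBM25_NT and 65.4 and 61.7 CPM in RBM25_MAPT, against 76.2 and 85.7 CPM in RBFOX1N_NT and 89.4 and 75.5 CPM in RBFOX1N_MAPT. It was the only member that fell, again with no overlap, by 0.35 ± 0.08 (SE) on the log2 scale and an edgeR adjusted p of 0.00456.

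For SRRM1, TIA1 and SNRNP70 the differences were of similar size but unequal firmness. SRRM1 had 373 and 352 CPM in RBM25_NT and 378 and 395 CPM in RBM25_MAPT, against 285 and 278 CPM in RBFOX1N_NT and 304 and 310 CPM in RBFOX1N_MAPT. The groups did not overlap, and the log2 fold change was 0.35 ± 0.06 (SE) with an edgeR adjusted p of 0.000507. TIA1 had 43.4 and 49.4 CPM in RBM25_NT and 37 and 53.2 CPM in RBM25_MAPT, against 34.6 and 35.4 CPM in RBFOX1N_NT and 34.9 and 33.3 CPM in RBFOX1N_MAPT. The gap between the groups was small, and the log2 fold change was 0.40 ± 0.11 (SE) with an edgeR adjusted p of 0.0099. SNRNP70 had 802 and 695 CPM in RBM25_NT and 769 and 613 CPM in RBM25_MAPT, against 582 and 615 CPM in RBFOX1N_NT and 610 and 603 CPM in RBFOX1N_MAPT. Here the groups overlapped. The log2 fold change was 0.26 ± 0.08 (SE) with an edgeR adjusted p of 0.0256, which ranged from 0.00289 to 0.0985 as single libraries were left out, and missed the threshold in 6 of those 8 fits.

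SNRPA, SNRPC and TIAL1 had log2 fold changes near 0 in this comparison. These were 0.02 ± 0.08 for SNRPA, 0.03 ± 0.06 for SNRPC and 0.01 ± 0.06 for TIAL1 (SE), with edgeR adjusted p of 0.864, 0.749 and 0.927. The RBM25_CD46 libraries, which were not in this comparison, had 413 and 399 CPM of LUC7L3, 83.1 and 77.7 CPM of LUC7L and 65 and 68.5 CPM of LUC7L2. For each of these 3 genes and for SRRM1, at 384 and 384 CPM, both RBM25_CD46 libraries lay outside the range of the 4 RBFOX1N libraries, on the same side as RBM25_NT and RBM25_MAPT.

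**Figure D2:**
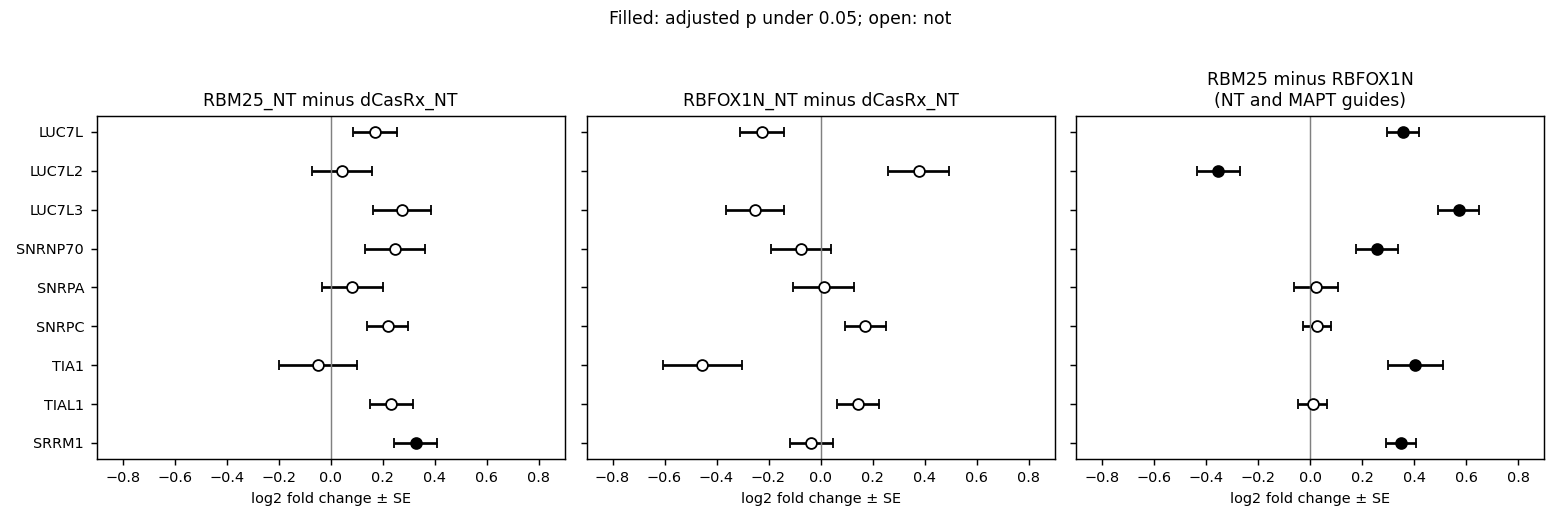
Log2 fold changes with their SE for the 9 members other than RBM25 in 3 comparisons; filled points passed an edgeR adjusted p under 0.05. In RBM25 minus RBFOX1N 6 of the 9 passed, in RBM25_NT minus dCasRx_NT only SRRM1, and in RBFOX1N_NT minus dCasRx_NT none.

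Against dCasRx alone, few members passed. For RBM25_NT minus dCasRx_NT, RBM25 itself and SRRM1 were called, 2 of 10, against 7.62% of all genes (with the guides pooled, 3 of 10, against 15.5%). SRRM1 had 373 and 352 CPM in RBM25_NT, against 308 and 269 CPM in dCasRx_NT, with no overlap. It rose by 0.33 ± 0.08 (SE) on the log2 scale with an edgeR adjusted p of 0.0286. Without RBM25_NT replicate 1, RBM25_NT replicate 2 or dCasRx_NT replicate 2 the call was lost, and single libraries left out moved the edgeR adjusted p between 0.00855 and 0.213. LUC7L3 (0.27 ± 0.11), SNRNP70 (0.25 ± 0.12), TIAL1 (0.23 ± 0.08) and SNRPC (0.22 ± 0.08) had positive log2 fold changes (SE) that did not pass, with edgeR adjusted p between 0.0963 and 0.203. For RBFOX1N_NT minus dCasRx_NT, which shares those controls, 0 of 10 members were called by edgeR and 2 by DESeq2, against 10.8% of all genes by edgeR. An unadjusted edgeR p under 0.05 was found for 6 of the 10, against 27.9% of all genes. The nearest were LUC7L2, at 0.38 ± 0.12 with an adjusted p of 0.055, and TIA1, at -0.46 ± 0.15 with an adjusted p of 0.0716 (log2 fold change ± SE). With the guides pooled, both were called, against 20.1% of all genes, and without the second dCasRx_NT library only 1 member was.

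The guide RNA had no detectable effect on the members. In RBM25_MAPT minus RBM25_NT, RBM25_CD46 minus RBM25_NT and RBFOX1N_MAPT minus RBFOX1N_NT, edgeR called 0 of 10 members, and 0% of all genes. None of the 10 had an unadjusted p under 0.05 in any of the 3, against 4.98%, 2.36% and 2.03% of all genes. The fitted log2 fold changes of the members ran from -0.15 (TIAL1) to 0.27 (RBM25) for RBM25_MAPT, from -0.14 (LUC7L) to 0.18 (RBM25) for RBM25_CD46, and from -0.04 (TIA1) to 0.12 (SRRM1) for RBFOX1N_MAPT. The test of whether the MAPT guide acted differently with the 2 effectors also called 0 members, with a smallest adjusted p of 0.936, and DESeq2 called 0 members in each of these 4 comparisons.

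Splicing events of the members were called at a share near that of all events in RBM25 minus RBFOX1N. In RBM25 minus RBFOX1N, 5 of 197 member events were called (adjusted p under 0.05 and at least 10 points), against 2.86% of all 100386 tested events. One of the 5 is the retention of RBM25 intron 9, at 0.05% to 0.07% in RBM25_NT and RBM25_MAPT, where the effector's spliced reads dilute the value, and 14.6% to 22.1% in the RBFOX1N libraries. The 4 others lay in TIA1, TIAL1 and LUC7L. At 5 points or more, 14 of 197 were called, against 6.23% of all events. Of these 14, 2 were in RBM25, with the same dilution, and 12 were among the 172 tested events of the other members. In RBM25_NT minus dCasRx_NT 2 of 197 were called, against 0.731%, and in RBFOX1N_NT minus dCasRx_NT 1 of 197, against 1.14%. At 5 points these were 4 of 197, against 1.46%, and 5 of 197, against 1.86%, with 1 event of RBM25 in each.

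TIA1 and TIAL1 each had an exon that separated the effectors. The 33-nt exon of TIA1, whose sequence is given above, distinguishes the long and short isoforms of the protein. It was included at 42.8% and 40.7% in RBM25_NT, 48.8% and 45.6% in RBM25_MAPT, and 49% and 48.1% in RBM25_CD46. It was included at 63.9% and 67.1% in RBFOX1N_NT, 69% and 67.3% in RBFOX1N_MAPT, and 57.2% and 53.4% in dCasRx_NT, on 207 to 347 reads a library. The 3 effectors did not overlap: the RBM25 libraries were lowest and the RBFOX1N libraries highest. The difference was -22.4 ± 1.35 points (SE) for RBM25 minus RBFOX1N, with an adjusted p of 4.88e-06 in the quasi-binomial model. For RBM25_NT minus dCasRx_NT it was -13.6 ± 1.91 points (SE) with an adjusted p of 0.0324, which rose to between 0.0713 and 0.195 when any 1 of those 4 libraries was left out. With the guides pooled this difference was -9.52 points (adjusted p = 0.0529, quasi-binomial model), under 10 points, and -7.63 points without dCasRx_NT replicate 1 as well (adjusted p = 0.335). The call was lost in 9 of 11 alternative settings. For RBFOX1N_NT minus dCasRx_NT it was 10.2 points with an adjusted p of 0.133.

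The 62-nt exon of TIAL1 holds the stop codon shown above. It was included at 15.7% and 14.7% in RBM25_NT, 14.5% and 20.1% in RBM25_MAPT, and 19.4% and 14.9% in RBM25_CD46. In RBFOX1N_NT it was included at 29.4% and 28.6% and in RBFOX1N_MAPT at 36% and 33.2%, while dCasRx_NT had 10.9% and 14.9%. The RBFOX1N libraries stood above all others. The difference was 16.1 ± 2.54 points for RBFOX1N_NT minus dCasRx_NT (adjusted p = 0.00151) and -15.5 ± 1.8 points for RBM25 minus RBFOX1N (adjusted p = 8.53e-06), both from the quasi-binomial model with SE. Single libraries left out put the first of these adjusted p between 0.0089 and 0.0259. The TIAL1 count did not pass in either comparison, with 154 to 158 CPM in the RBFOX1N libraries and 136 and 145 CPM in dCasRx_NT.

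In SNRNP70 the RBFOX1N libraries were again the highest, at a lower level of inclusion. Its 60-nt exon, which also holds a stop codon, was included at 2.86% and 2.76% in RBM25_NT, 3.22% and 2.85% in RBM25_MAPT, and 3.14% and 3.15% in RBM25_CD46. It was included at 9.13% and 11.3% in RBFOX1N_NT, 11.4% and 9.42% in RBFOX1N_MAPT, and 2.93% and 3.91% in dCasRx_NT, on 3836 to 7911 reads a library. The lowest RBFOX1N library was more than 5 points above any other. The difference was 6.81 ± 0.912 points for RBFOX1N_NT minus dCasRx_NT (adjusted p = 1.22e-05) and -7.41 ± 0.645 points for RBM25 minus RBFOX1N (adjusted p = 5.54e-09; SE, quasi-binomial model). Both lie under the 10 points set for a call and above 5 points. For RBM25_NT minus dCasRx_NT the difference was -0.61 points (adjusted p = 0.54). Leaving out any 1 library kept the adjusted p of RBM25 minus RBFOX1N at or under 1.41e-07.

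The remaining calls lay in LUC7L. Its 57-nt cassette exon (chr16:208601-208657, minus strand) was included at 23.1% and 16.2% in RBM25_NT and 21.8% and 13.9% in RBM25_MAPT, against 5.09% and 9.7% in RBFOX1N_NT and 7.54% and 7.14% in RBFOX1N_MAPT. The 2 dCasRx_NT libraries, at 6.36% and 13.7%, spanned most of the gap between the effectors. The difference of RBM25 minus RBFOX1N was 11.4 ± 2.84 points (SE) with an adjusted p of 0.00261 in the quasi-binomial model. Single libraries left out put the difference between 9.43 and 13.4 points, so that 2 of those 8 fits fell under 10 points. The first intron of LUC7L (chr16:227337-229278), next to the gene's 5′ end, was retained at 32.4% and 26.5% in RBM25_NT and 31.5% and 25.4% in RBM25_MAPT, against 10.5% and 15.9% in RBFOX1N_NT and 13.6% and 12.9% in RBFOX1N_MAPT. The dCasRx_NT libraries, at 23.5% and 27.5%, lay near the RBM25 libraries. The difference of RBM25 minus RBFOX1N was 15.7 ± 2.23 points (SE) with an adjusted p of 0.000177, and that of RBFOX1N_NT minus dCasRx_NT was -12.3 points with an adjusted p of 0.0518.

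An 876-nt intron of TIA1 (chr2:70214495-70215370) was retained more in the dCasRx_NT libraries than in those of both fusions. Only the difference of RBM25_NT from dCasRx_NT passed the test. The intron was retained at 9.38% and 8.41% in RBM25_NT and 12.8% and 11.6% in RBFOX1N_NT. In dCasRx_NT it was retained at 30% and 26.2%, with 66 to 187 reads a library over all groups. The other RBM25 and RBFOX1N libraries lay between 8.7% and 15.2%. The difference of RBM25_NT minus dCasRx_NT was -19.2 ± 2.65 points (SE) with an adjusted p of 0.00928, between 0.0316 and 0.0998 without 1 library. For RBFOX1N_NT minus dCasRx_NT it was -15.9 points with an adjusted p of 0.0638, and for RBM25 minus RBFOX1N it was -2.31 points with an adjusted p of 0.555.

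LUC7L3 had the most tested events of any member, 34, and none reached 10 points. Its 48-nt exon (chr17:50744652-50744699) was included at 86.9% and 84.8% in RBM25_NT and 83.5% and 82.1% in RBM25_MAPT, against 90.6% and 90.9% in RBFOX1N_NT and 90.8% and 89% in RBFOX1N_MAPT, while dCasRx_NT had 92.8% and 92%. All RBM25 libraries were below all others, by -6 ± 0.656 points for RBM25 minus RBFOX1N (adjusted p = 1.72e-05) and -6.52 ± 0.927 points for RBM25_NT minus dCasRx_NT (adjusted p = 0.00104; SE, quasi-binomial model). The 193-nt exon of LUC7L3, with the stop codon shown above, was included at 10.7% and 6.29% in RBM25_NT and 10.9% and 8.7% in RBM25_MAPT, against 5.08% and 4.86% in RBFOX1N_NT and 5.68% and 5.38% in RBFOX1N_MAPT. RBM25_CD46, at 6.86% and 6.02%, and dCasRx_NT, at 8.04% and 8.08%, lay within the range of RBM25_NT and RBM25_MAPT or just below it. The difference of RBM25 minus RBFOX1N was 3.9 ± 1.03 points (SE) with an adjusted p of 0.00724 in the quasi-binomial model. It was 0.45 points for RBM25_NT minus dCasRx_NT (adjusted p = 0.965) and -3.09 points for RBFOX1N_NT minus dCasRx_NT (adjusted p = 0.237), so no difference of either effector from dCasRx alone passed the test.

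Across the members, 10 tested exons hold an annotated stop codon and lie in transcripts marked for NMD and in none marked protein-coding, or are the 62-nt exon of RBM25. Outside RBM25 there are 8 of them, in 6 genes. In RBM25 minus RBFOX1N, 1 of the 8 was higher and 2 were lower at an adjusted p under 0.05, with a median difference of -0.09 points, against 12.1% of all tested events at that threshold in either direction. In RBM25_NT minus dCasRx_NT, 0 of the 8 passed, with a median of 0.22 points, against 2.3% of all events. In RBFOX1N_NT minus dCasRx_NT, 2 of the 8, those of TIAL1 and SNRNP70, were higher and 0 were lower, with a median of -0.21 points, against 2.7% of all events. The 66-nt exon of TIA1, printed above, had a difference of -6.21 ± 2.8 points (SE) that did not pass (adjusted p = 0.193, quasi-binomial model), on 47 to 119 reads a library. This grouping was made after the values were seen.

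The event with the largest difference was small in the other members. For LUC7L2 it was a 77-nt exon (chr7:139371387-139371463), included at 8.98% to 11.2% in RBM25_NT and RBM25_MAPT and 5.65% to 6.43% in the RBFOX1N libraries, a difference of 3.87 ± 0.54 points with an adjusted p of 0.00185. For SNRPC it was a 43-nt exon (chr6:34757912-34757954), at 91.4% to 94.9% in RBM25_NT and RBM25_MAPT and 96.6% to 97.4% in the RBFOX1N libraries, a difference of -3.68 ± 0.729 points with an adjusted p of 8.07e-05. For SRRM1 it was an alternative 3′ splice site, at 3.84 ± 1.76 points with an adjusted p of 0.0857, and for SNRPA an alternative 5′ splice site, at -4.73 ± 3.76 points with an adjusted p of 0.51 on 33 to 110 reads a library (SE, quasi-binomial model). For the guides, 0 of 197 member events were called in each of the 3 comparisons, against 0.000996%, 0% and 0% of all events (0.00199%, 0.000996% and 0.000996% at 5 points). For RBM25_MAPT, RBM25_CD46 and RBFOX1N_MAPT, 13, 21 and 17 of the 197 had an unadjusted p under 0.05 in the quasi-binomial model. Over all 100386 tested events these numbers were 5833, 5924 and 5949. Of the member events, 8, 8 and 0 were in RBM25, whose values the effector's reads dilute in its libraries.

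The other genes of the pathway were read from lists of U1 and U2 components, with edgeR log2 fold changes in brackets and calls at an adjusted p under 0.05. Of the 8 genes listed for Sm proteins, which form the ring of the snRNPs, 7 were tested, since SNRPN had at most 2 counts in a library. Between RBM25 and RBFOX1N, where 36.7% of all genes were called with a median log2 fold change of 0.01, 3 of the 7 rose and 0 fell, with a median of 0.27. They were SNRPD3 (0.73), SNRPF (0.29) and SNRPD2 (0.17). Of 5 partners of SRRM1, 2 rose there, PNN (0.35) and SAP18 (0.26), with a list median of 0.01. Of 13 U2 snRNP and 3′ splice site factors, SNRPA1 (0.57) and U2AF2 (0.20) rose while SF3B4 (-0.35) and SF3A1 (-0.19) fell, 4 of 13 with a list median of 0.04. All 3 lists were thus called at a share near that of all genes. SNRPD3, PNN, SNRPA1 and SF3B4 passed in each of the 8 fits without 1 library. SAP18 passed in 4 of them, SF3A1 in 3, SNRPF and U2AF2 in 2 and SNRPD2 in 1.

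Against dCasRx_NT, fewer genes of these lists passed, and each of those calls was lost in at least 3 of the 4 fits without 1 library. In RBM25_NT minus dCasRx_NT, SNRPB (0.37) and SNRPD3 (0.35) rose, 2 of the 7 Sm genes against 7.62% of all genes. The median log2 fold change of the list was -0.12, beside 0.01 over all genes. SNRPB passed in 0 of the 4 fits without 1 library (edgeR adjusted p 0.0623 to 0.119) and SNRPD3 in 1 (0.0278 to 0.295). No SRRM1 partner and no U2 factor passed the edgeR test, with 3 of 5 and 5 of 13 at an unadjusted p under 0.05, against 24.5% of all genes. In RBFOX1N_NT minus dCasRx_NT, where 10.8% of all genes were called, SF3B4 rose (0.38) and SNRPA1 fell (-0.30), 2 of the 13 U2 factors. Each passed in 1 of the 4 fits without 1 library, with an edgeR adjusted p of 0.00809 to 0.288 for SF3B4 and 0.043 to 0.188 for SNRPA1. There 0 Sm genes and 0 partners of SRRM1 passed the edgeR test, with 4 of the 7 and 2 of the 5 at an unadjusted p under 0.05, against 27.9% of all genes.

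The genes whose log2 CPM followed each member most closely over the 12 libraries were found among the 20592 other tested genes. They describe likeness over libraries that share effectors and depth. The RBM25 counts in the dCasRx-RBM25 libraries come mainly from the effector, so likeness to RBM25 is likeness to that split of the libraries. For RBM25 the nearest were CYP1B1 (Pearson r = 0.99), FYCO1 (0.986) and MIR4453HG (0.984). For LUC7L they were CCNL2 (0.961), PDE9A (0.96) and CRY2 (0.959), and for LUC7L3 SLC25A27 (0.946), UFD1 (0.943) and GGNBP2 (0.943). The 3 genes nearest to LUC7L2 (0.93 to 0.94) have no symbol in the name table. For SRRM1 they were NRDE2 (0.976), CAMK2G (0.97) and ZBTB40 (0.967), and for SNRNP70 ACSF3 (0.974), BRSK2 (0.974) and KLHL17 (0.97). TIA1 was nearest to EIF4E3 (0.985), FZD3 (0.976) and RAP1A (0.97), and TIAL1 to CCNY-AS1 (0.909), AP1AR-DT (0.908) and NT5DC3 (0.907). SNRPA was nearest to MPG (0.951), ALG12 (0.95) and MDK (0.928), and SNRPC to CEP83-DT (0.95), a gene with no symbol (0.946) and TUBA1B (0.914). No member was among the 3 genes nearest to another.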

How the data were processed

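The authors deposited whole-number read counts per Ensembl gene and a splicing table with the percent spliced in per library. Beside each percent value the authors' table holds a text field of quality scores and reads, in the layout of vast-tools, whose version is not given in the sources used here. Per the submitters' processing notes, tools included STAR 2.7.10 and edgeR and the build was hg38. The strand setting is not given, so antisense and overlapping genes are uncertain. Expression was tested with edgeR 4.0.16 (TMM, quasi-likelihood) on 20593 genes in 1 fit of 6 groups and 12 libraries with 6 residual degrees of freedom. Adjustment was Benjamini-Hochberg over all genes. Levels are TMM-scaled CPM, and log2 CPM uses a prior count of 2. For splicing, a quasi-binomial model was fitted to reads for and against each form, moderated across 100386 events with at least 20 reads in each library and 24 of the less used form. SE of points come from the pooled SD between replicates. Exact tests of 2 libraries against 2 cannot go below p = 0.333.

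For RBM25, raw junction reads from the quality field were used, because the corrected reads are rounded to 0 where the effector dominates. Exons were placed on GENCODE release 29. In simulated data for RBM25_NT minus dCasRx_NT, the edgeR step recovered 98% of 2-fold changes among 19938 genes with 4.81% false calls, and the splicing step 53.5% of 20-point changes among 20000 events with 10.1% false calls. The simulated counts had 1 common spread for all genes and no change under 2-fold. They cannot tell how well smaller changes, such as those of the members other than RBM25, are recovered. The simulated splicing changes were placed only in events of intermediate inclusion with more reads than the test requires. They were scored by adjusted p without the 10-point rule. They cannot tell how well changes of rarely or nearly always included exons, such as several named here, are recovered. The 10.1% is above the rate at which an adjusted p under 0.05 aims. The members, lists and tests were chosen with earlier results of these data known. Named were all 10 members, every called event of a member, its event with the largest difference in RBM25 minus RBFOX1N, the 3 genes nearest in log2 CPM and called genes of the lists. A further list fixed for the analysis is not reported here. Alternatives were other normalizations, tools, filters, the replicate block, single libraries left out and pooled guides. Same-numbered replicates did not deviate together throughout (correlations -0.0979 to 0.166), so numbers were not treated as pairs.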

Additional observations from a re-analysis of the deposited data

How the results depend on the processing

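In RBM25 minus RBFOX1N, 6 or 7 of 10 members were called as single libraries were left out, and 4 to 6 of 197 events. At 5 points 14 events were called there. Against dCasRx_NT the counts moved more, and the cause was not tested. In RBM25_NT minus dCasRx_NT, 2 members were called, 1 in the fit of only those groups, 1 with guides pooled without dCasRx_NT replicate 2, and 1 to 2 with single libraries left out. In RBFOX1N_NT minus dCasRx_NT, 0 were called, 2 by DESeq2, 3 with no filter on low counts, 1 in the fit of only those groups, 2 with guides pooled, 2 and 1 with guides pooled without dCasRx_NT replicate 1 and 2, and 0 to 2 with single libraries left out. For events, RBM25_NT minus dCasRx_NT gave 2, then 4 at 5 points, 0 by limma on logit values, 1 with guides pooled and 1 with guides pooled without dCasRx_NT replicate 1, and 0 to 2 with single libraries left out. RBFOX1N_NT minus dCasRx_NT gave 1, then 5 at 5 points, 0 by limma, 4 with guides pooled, 3 with guides pooled without dCasRx_NT replicate 1, and 1 to 2 with single libraries left out. The pooled settings without a dCasRx_NT library were chosen after seeing the data. With the replicate block, 2 members were called in RBFOX1N_NT minus dCasRx_NT and 1 event in RBM25_NT minus dCasRx_NT, and the ratio of RBM25 intron reads was 1.29 with a permutation p of 0.045. Under it the TIA1 33-nt exon had an adjusted p of 0.0518 in RBM25_NT minus dCasRx_NT, and of 0.344 by limma. The block changed no other count of members or member events called. The ratio of RBM25 intron reads was 1.22 scaled to all counts, 1.16 scaled to retained reads of other genes, 1.11 without intron 9 and 1.21 without intron 13, and 1.22 to 1.34 with single libraries left out, where 5 of 12 passed the threshold no more. Over all genes, single libraries left out gave 368 to 2048 calls in RBM25_NT minus dCasRx_NT, against 1570, and 624 to 2972 in RBFOX1N_NT minus dCasRx_NT, against 2217. They gave 0 to 555 in RBM25_MAPT minus RBM25_NT, against 0. Over all events they gave 237 to 447 and 473 to 783 in the first and second of these, against 734 and 1147.

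Log2 fold changes of members that were not called changed sign as follows. In RBM25_NT minus dCasRx_NT, single libraries left out gave -0.080 to 0.18 for LUC7L2, -0.062 to 0.23 for SNRPA and -0.19 to 0.10 for TIA1. With guides pooled, LUC7L2 was at -0.069 without dCasRx_NT replicate 1, and SNRPA at -0.12 and TIA1 at 0.085 without replicate 2. In RBFOX1N_NT minus dCasRx_NT, they gave -0.75 to 0.018 for RBM25, -0.19 to 0.049 for SNRNP70, -0.12 to 0.16 for SNRPA and -0.14 to 0.073 for SRRM1. With guides pooled, SRRM1 was at 0.026, and at 0.14 without dCasRx_NT replicate 1, where SNRNP70 was at 0.059. Without replicate 2, RBM25 was at 0.041 and SNRPA at -0.11, and the fit of only those groups gave -0.0023 for SNRPA. In RBM25 minus RBFOX1N, single libraries left out gave -0.078 to 0.12 for SNRPA, -0.00068 to 0.058 for SNRPC and -0.033 to 0.055 for TIAL1. TIAL1 was at -0.0035 with RLE size factors, -0.0036 by DESeq2 and -0.0068 in the fit of only those groups. The members' events rested on as few as 33 to 110 reads a library for the SNRPA splice site, 47 to 119 for the TIA1 66-nt exon and 66 to 187 for the TIA1 intron, and with 2 libraries a group the spread between replicates limits them as well.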
